A study of Mus musculus with 4 samples.

Results

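Genes of eicosanoid synthesis, 10 of the 17335 genes measured, were followed in gonadal white adipose tissue (gWAT): the cyclooxygenases Ptgs1 and Ptgs2, the prostaglandin synthases Ptges, Ptgds and Ptgis, the leukotriene genes Alox5, Alox5ap, Lta4h and Ltc4s, and the 12/15-lipoxygenase gene Alox15. They were selected by gene symbol. All 10 were found, and all 10 passed the filter of 0.1 FPKM (a read level corrected for the length of the transcript and the depth of the library) in at least 1 library.

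Eicosanoids are short-lived lipid signals made from arachidonate, a fatty acid that phospholipases A2 release from membranes. Cyclooxygenases turn arachidonate into prostaglandin H2, and each terminal synthase turns that intermediate into 1 product, among them prostaglandin E2 (Ptges), prostaglandin D2 (Ptgds) and prostacyclin (Ptgis). In the other branch, 5-lipoxygenase (Alox5), helped by its activating protein FLAP (Alox5ap), makes leukotriene A4, which Lta4h converts to the neutrophil attractant leukotriene B4 and Ltc4s to the cysteinyl leukotriene C4. In fat, prostaglandin E2 restrains lipolysis, and leukotriene B4 draws in leukocytes.

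RNA-seq compared gWAT of female fl/fl mice, whose Dnmt1 is floxed but intact, with that of AD1KO littermates, which carry the same floxed Dnmt1 and adiponectin-Cre, a driver active mainly in mature adipocytes. Both groups were fed a high-fat diet (HFD; 60% of calories from fat) for 18 weeks, and equal amounts of RNA from 4 animals were pooled per group. The mice's age was not given in the sources used here. Each genotype therefore gave 1 library, the spread between animals could not be measured, and no test was made; the comparison asks how the libraries differ in the genes of this pathway.

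Dnmt1, the targeted gene, counted over its whole transcript, stood at 6.99 FPKM in fl/fl and 3.33 FPKM in AD1KO, a log2 ratio of -1.07. Reads per gene, estimated from the smallest steps of the FPKM values, summed to about 17763266 in fl/fl and 17571679 in AD1KO. Intervals given below are exact 95% counting intervals on those estimated reads; they cover counting error only, and not the spread between mice. A gene was called lower or higher in AD1KO at a log2 ratio of 0.5 or more in size. Among the 15839 genes past the filter, 19.1% were lower and 14.3% higher, with a median log2 ratio of -0.04. For 8.28% of genes the whole interval lay past the fold on the lower side, and for 4.19% on the higher side.

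At that fold, 3 of the 10 enzyme genes were lower in AD1KO (Alox5ap, Ptgs2 and Ptgds), 1 was higher (Ptgis) and 6 lay between, with a median log2 ratio of 0.02. Only Alox5ap on the lower side and Ptgis on the higher side had their whole interval past the fold. Ptgs2 and Ptgds rested on few reads. The background is the 19.1% and 14.3% of all genes called at that fold. The summed level of the 10 genes was 509 FPKM in fl/fl and 511 FPKM in AD1KO. Its makeup differed: Ltc4s gave 56.0% of the sum in fl/fl and 67.6% in AD1KO, and Alox5ap gave 27.3% and 12.9%.

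**Figure D1:**
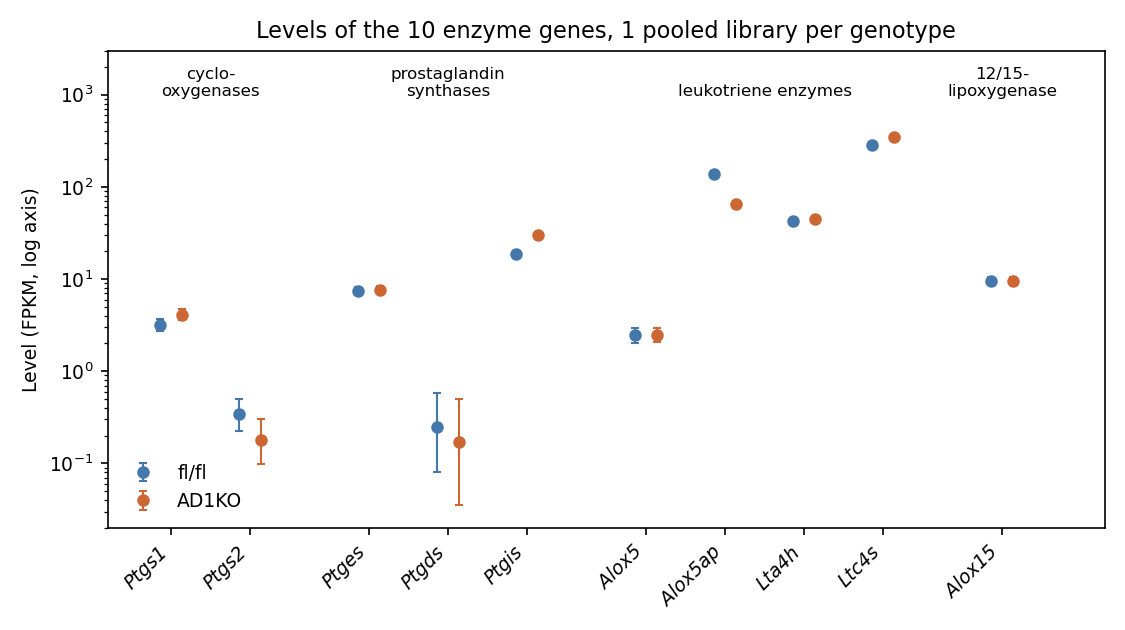
Level of each enzyme gene in FPKM on a log axis, with fl/fl in blue and AD1KO in orange. Points are the single pooled library of each genotype and bars are 95% counting intervals; Alox5ap is at 138.94 FPKM in fl/fl and 65.85 FPKM in AD1KO, and Ptgis at 18.51 and 30.08 FPKM.

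On the FPKM scale, which corrects for transcript length, the order of levels was the same in both libraries: Ltc4s, Alox5ap, Lta4h, Ptgis, Alox15, Ptges, Ptgs1, Alox5, Ptgs2 and Ptgds, from high to low. Neighbours in this order were separated by more than their counting intervals, except Ptgs2 and Ptgds in both libraries and Ptgs1 and Alox5 in fl/fl. Of the genes past the filter, 98.2% had a lower mean level over both libraries than Ltc4s, and 9.67% a lower one than Ptgs2.

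The cyclooxygenases stood far apart in level. Ptgs1, the constitutive enzyme, was at 3.18 FPKM (interval 2.70 to 3.72) in fl/fl and 4.12 FPKM (3.57 to 4.74) in AD1KO. Its log2 ratio was 0.37 (0.06 to 0.69), short of the fold. Ptgs2, the inducible enzyme of inflamed tissue, was at 0.34 FPKM (0.222 to 0.498) and 0.18 FPKM (0.0984 to 0.302), about 26 and 14 reads. Its log2 ratio of -0.88 passed the fold, but the interval of -1.93 to 0.11 included 0, so a difference was not resolved at this depth. The level of Ptgs1 was 9.35 times that of Ptgs2 in fl/fl and 22.9 times in AD1KO. With about 14 reads behind the AD1KO value of Ptgs2, the latter ratio is imprecise.

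The start regions of these genes differ in their content of CpG, the dinucleotide that Dnmt1 methylates, and are shown for that reason. The windows run from 250 bases before to 50 bases after the start of the RefSeq transcript (GRCm38.p6), at chr2:36230176-36230475 for Ptgs1 and chr1:150099781-150100080 for Ptgs2, both on the plus strand. They are written 5′ to 3′ with each CpG in capitals.
Ptgs1: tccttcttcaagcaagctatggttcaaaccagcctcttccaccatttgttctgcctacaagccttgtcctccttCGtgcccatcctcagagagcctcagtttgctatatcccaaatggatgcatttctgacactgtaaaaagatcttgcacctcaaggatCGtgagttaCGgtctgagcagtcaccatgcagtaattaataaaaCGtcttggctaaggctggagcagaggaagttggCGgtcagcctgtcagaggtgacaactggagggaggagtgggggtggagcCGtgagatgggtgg
Ptgs2: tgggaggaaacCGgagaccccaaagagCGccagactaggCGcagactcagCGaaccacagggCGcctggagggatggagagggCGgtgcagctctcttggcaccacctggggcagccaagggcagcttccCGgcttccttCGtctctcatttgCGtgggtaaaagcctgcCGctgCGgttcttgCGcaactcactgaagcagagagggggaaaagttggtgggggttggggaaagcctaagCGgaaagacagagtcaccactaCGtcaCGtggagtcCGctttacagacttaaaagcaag
The Ptgs1 window holds 6 CpGs and the Ptgs2 window 16. Over 32851 such windows the median was 7, 43.6% held fewer than that of Ptgs1 and 67.0% fewer than that of Ptgs2, and 94.6% held at least 1. Methylation of these windows was not analysed here. In mm9, the build that the study's methods name for the reads, Ptgs1 lies at chr2:36085946-36107792 and Ptgs2 at chr1:151947254-151955140, both on the plus strand.

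Among the terminal synthases, Ptgis was higher in AD1KO, while Ptges was at nearly the same level in both libraries. Ptgis, the prostacyclin synthase, was at 18.51 FPKM (17 to 20.2) in fl/fl and 30.08 FPKM (28.1 to 32.2) in AD1KO, 1.62-fold higher, with a log2 ratio of 0.70 (0.54 to 0.86). Of the genes past the filter, 90.5% had a lower ratio. Ptges, the microsomal prostaglandin E synthase, was at 7.51 FPKM (6.84 to 8.22) and 7.61 FPKM (6.94 to 8.33), a log2 ratio of 0.02 (-0.17 to 0.21). Ptgds, the lipocalin-type prostaglandin D synthase, was at 0.25 FPKM (0.0812 to 0.583) and 0.17 FPKM (0.0351 to 0.497), which is about 5 and 3 reads. Its log2 ratio of -0.53 was past the fold by 0.03 only, and its interval ran from -3.41 to 1.64.

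In mm9 the 3 synthase genes lie on the minus strand of chromosome 2, Ptges at chr2:30744991-30785383, Ptgds at chr2:25322229-25325566 and Ptgis at chr2:167017305-167066104. Exons of Ptgis overlap those of 1110018N20Rik, a long noncoding RNA gene of the opposite strand. The sources used here do not say whether strand was used in counting, so reads of Ptgis and of that partner cannot be told apart.

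**Figure D2:**
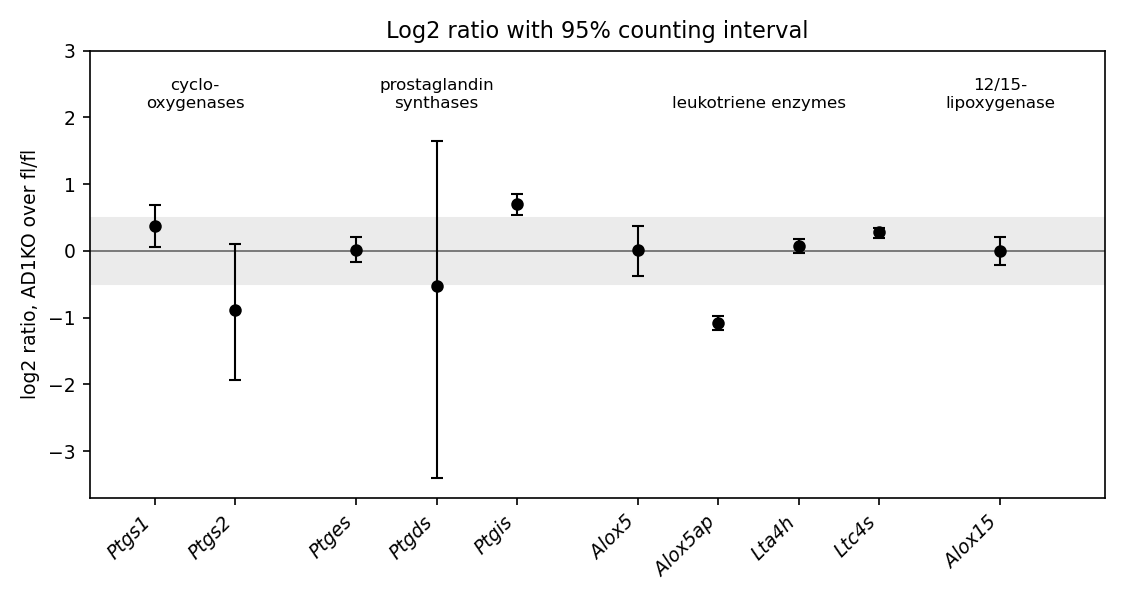
Log2 ratio of AD1KO over fl/fl for each enzyme gene, with bars for the 95% counting interval and the span between -0.5 and 0.5 shaded. The whole bar lies past the fold for Alox5ap (-1.08) and Ptgis (0.70) only, and the bars of Ptgs2 and Ptgds include 0.

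In the leukotriene branch, Alox5ap was lower in AD1KO, whereas Alox5, Lta4h and Ltc4s lay within the fold. Alox5ap was at 138.94 FPKM (133 to 145) in fl/fl and 65.85 FPKM (61.9 to 70.0) in AD1KO, 2.11-fold lower, with a log2 ratio of -1.08 (-1.18 to -0.97). Of the genes past the filter, 7.95% had a lower ratio. Alox5, the lipoxygenase that FLAP serves, was at 2.46 FPKM (2.04 to 2.95) and 2.48 FPKM (2.05 to 2.97), a log2 ratio of 0.01 (-0.38 to 0.38). On about 118 and 117 reads, its interval lies inside the fold on both sides. FLAP mRNA thus exceeded that of its partner 56.5 times in fl/fl and 26.6 times in AD1KO.

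The enzymes that divide leukotriene A4 between its products differed in level more than in ratio. Lta4h was at 42.85 FPKM (40.7 to 45.1) in fl/fl and 45.21 FPKM (43.0 to 47.5) in AD1KO, a log2 ratio of 0.08 (-0.03 to 0.18). Ltc4s was at 285.16 FPKM (275 to 296) and 345.38 FPKM (334 to 357), a log2 ratio of 0.28 (0.20 to 0.35). Its interval was above 0 and short of the fold. The level of Ltc4s was 2.05 times that of Alox5ap in fl/fl and 5.24 times in AD1KO, and 6.65 and 7.64 times that of Lta4h.

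The start windows of Alox5, at chr6:116461129-116461428, and Ltc4s, at chr11:50238483-50238782 (GRCm38.p6, minus strand), are given as the least and the most abundant genes of this branch. CpGs are again in capitals.
Alox5: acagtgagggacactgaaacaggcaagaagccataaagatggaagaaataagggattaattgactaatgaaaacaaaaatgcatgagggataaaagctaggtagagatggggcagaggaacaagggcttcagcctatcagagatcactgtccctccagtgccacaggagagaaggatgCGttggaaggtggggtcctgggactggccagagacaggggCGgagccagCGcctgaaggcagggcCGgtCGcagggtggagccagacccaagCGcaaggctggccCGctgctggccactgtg
Ltc4s: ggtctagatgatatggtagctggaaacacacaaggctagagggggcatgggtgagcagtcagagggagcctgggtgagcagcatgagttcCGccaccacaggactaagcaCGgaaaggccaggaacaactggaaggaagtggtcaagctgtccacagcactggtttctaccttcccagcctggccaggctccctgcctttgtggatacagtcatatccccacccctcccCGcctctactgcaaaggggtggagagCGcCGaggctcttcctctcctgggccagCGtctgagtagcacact
They hold 7 and 6 CpGs, near the median of 7 over all windows. RefSeq windows were matched for 7 of the 10 genes, not for Ptgis, Alox5ap and Alox15. Those of Ptgds, Ptges and Lta4h hold 2, 10 and 16 CpGs. The letters TATAAA, searched on both strands, are in none of the 7 windows and in 13.6% of all windows. In mm9, Alox5 lies at chr6:116360095-116411196 (minus), Alox5ap at chr5:150076634-150099621 (plus), Lta4h at chr10:92916141-92947641 (plus) and Ltc4s at chr11:50049971-50052118 (minus). Exons of Ltc4s overlap those of the opposite-strand noncoding gene Gm16641, so the same limit holds as for Ptgis.

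Alox15, the mouse 12/15-lipoxygenase that oxygenates arachidonate for mediators outside both branches, was at 9.58 FPKM (8.65 to 10.6) in either library. Its log2 ratio was 0.00 (-0.21 to 0.21) on about 388 and 384 reads. In mm9 it lies at chr11:70157654-70165533 on the minus strand.

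Markers of macrophages, mast cells and T cells were lower in AD1KO beside Alox5ap, while other immune lists were mixed. In whole tissue, fewer cells of a type and less RNA per cell cannot be told apart. The background for each marker count is the 19.1% lower and 14.3% higher over all genes. Of 10 macrophage markers, 9 were lower in AD1KO and none higher, with a median log2 ratio of -0.89 and a summed level of 3500 FPKM in fl/fl and 1730 FPKM in AD1KO. All 9 mast cell markers were lower, with a median of -1.37 and sums of 383 and 141 FPKM. The eosinophil list had 2 lower and 1 higher of 4, with sums of 3.38 and 1.73 FPKM. The neutrophil list had 3 lower and 1 higher of 5, with sums of 44.0 and 63.3 FPKM, of which S100a8 made up 32.72 and 57.28 FPKM. T cell markers were lower in 4 of 4, B cell markers in 2 of 4, and dendritic cell markers lower in 3 and higher in 1 of 5. The 5 markers of resident peritoneal macrophages, cells that express Alox15, had 1 lower and none higher, with sums of 40.7 and 39.4 FPKM. None of these markers was at 0 in either library; the listed eosinophil marker Epx and neutrophil marker Ly6g were not matched and are not analysed here. Their part in the values of Alox5ap, Ptgs2 and Alox15 was not tested.

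Markers of other tissue cells stood beside Ptgis, a gene known in vessel walls and stroma. Of 5 smooth muscle and pericyte markers, 2 were higher in AD1KO and none lower, with sums of 234 and 381 FPKM. All 5 mesothelial markers were higher (sums of 74.3 and 140 FPKM), and 7 of 8 adipocyte markers were higher (16600 and 25400 FPKM). None of 4 endothelial markers passed the fold (56.9 and 65.2 FPKM), and 1 of 5 stromal markers was lower (677 and 799 FPKM). Of 4 platelet markers 2 were lower (196 and 122 FPKM). All 4 markers of reproductive tract epithelium were lower, with a median log2 ratio of -4.45, the largest shift of the marker lists. They summed to 12.5 FPKM in fl/fl and 0.76 FPKM in AD1KO, with Pax8 listed at 0 in AD1KO. The part of these cells in the value of Ptgis was not tested.

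**Figure D3:**
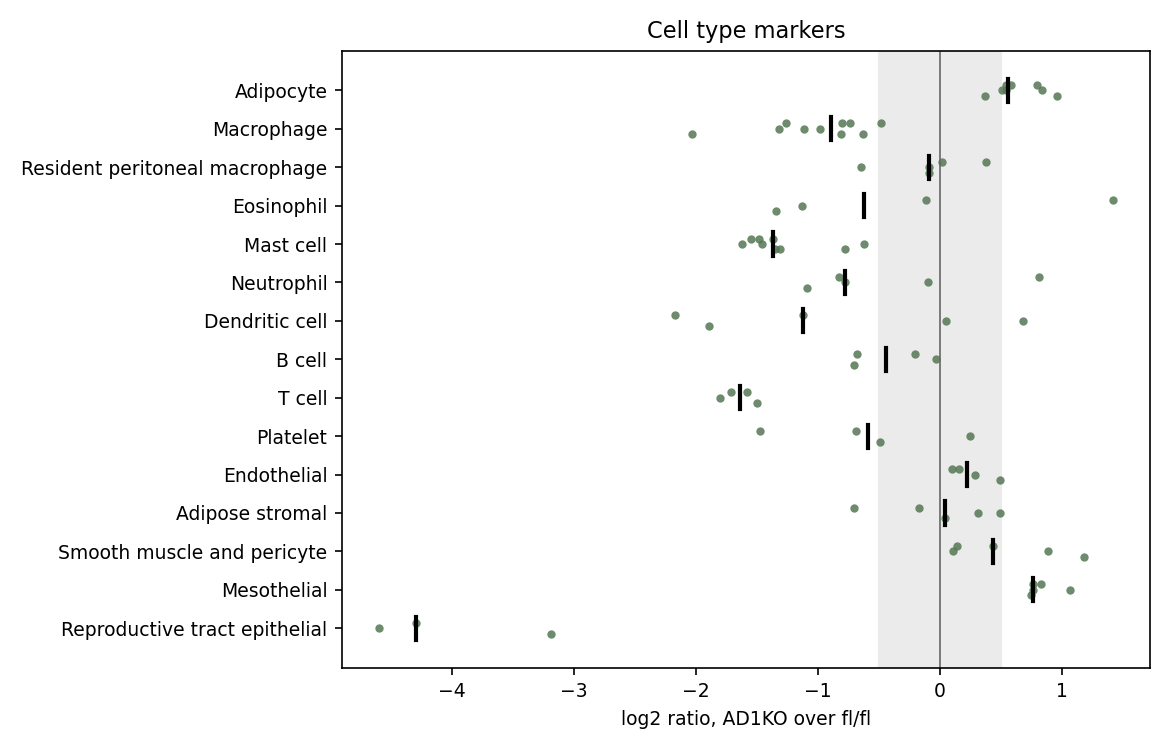
Log2 ratio of AD1KO over fl/fl for markers of 15 cell types; each point is a gene with reads in both libraries, each bar the median of those genes, and the shaded span lies between -0.5 and 0.5. The macrophage and mast cell medians are at -0.89 and -1.37, the adipocyte and mesothelial medians at 0.56 and 0.76.

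Beyond the 10 enzymes, 65 genes of 8 pathway groups were listed, of which 54 were measured past the filter. In AD1KO 13 were lower, 9 higher and 32 between, near the background of 19.1% lower and 14.3% higher over all genes, with a median log2 ratio of 0.08, or -0.02 over the 52 genes with reads in both libraries. Under upper quartile scaling the split was 12 lower and 16 higher. The whole interval lay past the fold for 7 on the lower and 3 on the higher side, beside 8.28% and 4.19% of all genes. The same shares of all genes are the background for the count of each group below.

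Of the 6 other prostanoid synthases, 2 were lower in AD1KO and 1 was higher. Tbxas1, the thromboxane synthase, was at 61.76 FPKM in fl/fl and 21.48 FPKM in AD1KO, a log2 ratio of -1.52 (-1.65 to -1.40). Hpgds, the hematopoietic prostaglandin D synthase, was at 27.11 and 11.57 FPKM, with a log2 ratio of -1.23 (-1.37 to -1.09). Its level was far above that of Ptgds in both libraries, by a ratio that about 5 and 3 reads of Ptgds leave imprecise. Fam213b, a prostamide and prostaglandin F synthase, was at 94.67 and 153.27 FPKM, with a log2 ratio of 0.70 (0.59 to 0.80). The level of Tbxas1 was 3.34 times that of Ptgis in fl/fl and 0.714 times in AD1KO. The other 3 synthases of the list lay within the fold.

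The phospholipases A2 were mixed: of 14 measured, 4 were lower, 5 higher and 5 between, with a median log2 ratio of 0.44. The whole interval lay past the fold for 1 gene on each side. Those of the lower Pla2g4c and the higher Pla2g4e, both named after their values were seen, included 0. For 2 of the 5 higher genes, fl/fl was listed at 0 and AD1KO had about 2 reads; over the 12 genes with reads in both libraries the median was 0.29. Pla2g7, the platelet-activating factor acetylhydrolase, was at 68.23 FPKM in fl/fl and 25.00 FPKM in AD1KO, a log2 ratio of -1.45 (-1.57 to -1.33). Pla2g15, the lysosomal enzyme, was at 43.99 and 30.19 FPKM (-0.54, -0.64 to -0.44). On the higher side, the secreted Pla2g5 was at 5.57 and 10.67 FPKM (0.94, 0.68 to 1.21) and the calcium-independent Pla2g6 at 14.05 and 20.44 FPKM (0.54, 0.41 to 0.67). Pla2g16, the main phospholipase A2 of adipocytes, was at 144.94 and 203.91 FPKM with a log2 ratio of 0.49 (0.45 to 0.53), just short of the fold. Pla2g4a, the cytosolic enzyme that prefers arachidonate, was at 6.52 and 5.92 FPKM (-0.14, -0.37 to 0.10).

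**Figure D4:**
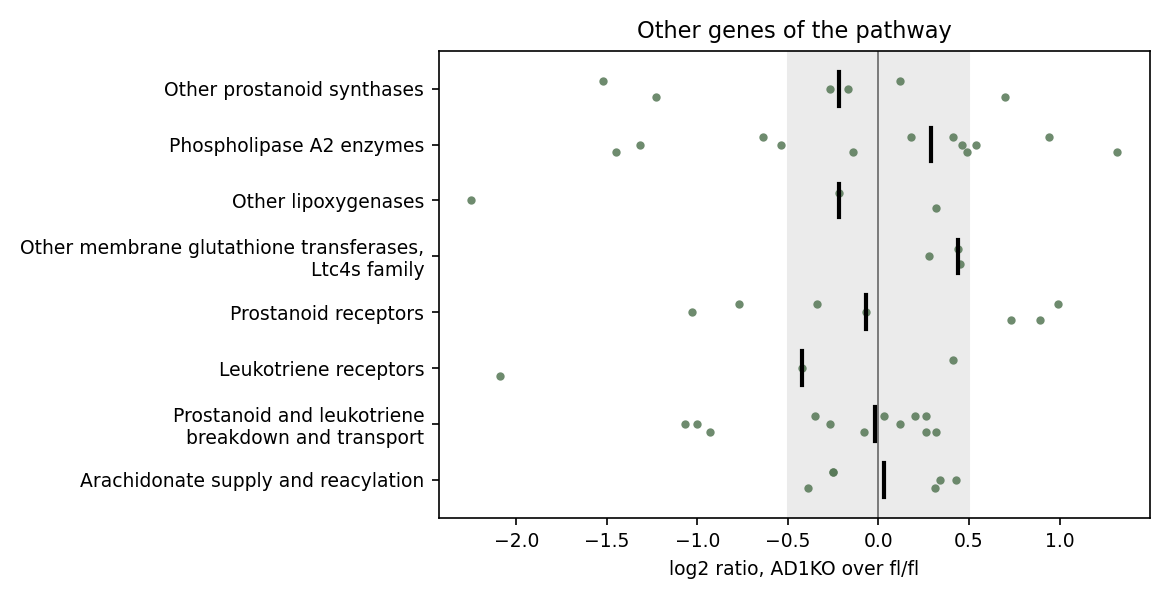
Log2 ratio of AD1KO over fl/fl for other genes of the pathway in 8 groups; each point is a gene with reads in both libraries, each bar the median of those genes, and the shaded span lies between -0.5 and 0.5. Points lie on both sides of the fold among the synthases, the phospholipases A2 and the prostanoid receptors.

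Of 7 prostanoid receptors measured, 2 were lower, 3 higher and 2 between, and of the 4 receptors of prostaglandin E2 1 was higher, 2 were lower and 1 lay within the fold. Ptger3, the EP3 receptor through which prostaglandin E2 restrains lipolysis in adipocytes, was at 28.32 FPKM in fl/fl and 52.49 FPKM in AD1KO, a log2 ratio of 0.89 (0.78 to 1.00). Ptger4 was at 4.88 and 2.85 FPKM (-0.77, -1.07 to -0.49) and Ptger2 at 2.15 and 1.05 FPKM (-1.03, -1.47 to -0.60). The latter pair encode receptors that raise cyclic AMP and are found on macrophages. Ptger1, named after its values were seen, was at 9.36 and 7.39 FPKM (-0.34, -0.59 to -0.10). Tbxa2r, the thromboxane receptor, was at 0.81 and 1.62 FPKM (0.99, 0.26 to 1.74). The third higher receptor was Ptgfr, named after its values were seen, at 0.73 and 1.22 FPKM (0.73, 0.26 to 1.26). Ptgir, the receptor of the Ptgis product prostacyclin, was at 3.31 and 3.15 FPKM (-0.07, -0.38 to 0.23).

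Of 3 leukotriene receptors measured, 1 was lower and none higher. That gene was Cysltr2, named after its values were seen, at 0.80 FPKM in fl/fl and 0.18 FPKM in AD1KO. On about 23 and 5 reads, its log2 ratio was -2.09 (-3.94 to -0.76), with the whole interval past the fold. Cysltr1, the other receptor for cysteinyl leukotrienes, was at 2.97 and 2.22 FPKM (-0.42, -0.78 to -0.05). Ltb4r1, the high-affinity leukotriene B4 receptor, was at 0.84 and 1.12 FPKM (0.41, -0.51 to 1.35).

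Of 12 genes for the breakdown and transport of these mediators, 3 were lower, none higher and 9 between, with a median of -0.02. The background over all genes was 19.1% lower and 14.3% higher. Dpep2, a membrane dipeptidase that trims cysteinyl leukotrienes, was at 43.73 FPKM in fl/fl and 21.93 FPKM in AD1KO, a log2 ratio of -1.0 (-1.14 to -0.85). Cyp4f18, a cytochrome that inactivates leukotriene B4, was at 11.75 and 6.15 FPKM (-0.93, -1.21 to -0.66). The third, Ggt1, named after its values were seen, had about 7 and 3 reads. Hpgd, which starts the breakdown of prostaglandins, was at 53.40 and 61.19 FPKM (0.20, 0.10 to 0.30).

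The remaining groups held 1 called gene. None of 3 membrane glutathione transferases related to Ltc4s passed the fold, with log2 ratios of 0.28 to 0.45, and none of 6 genes of arachidonate supply and reacylation did, with ratios of -0.39 to 0.43. Of 3 other lipoxygenases, 1 was lower, Alox12e, named after its values were seen, on about 7 and 1 reads. The values of all immune lists and of the platelet list given above stand beside Tbxas1, Hpgds, Pla2g7, Dpep2, Ptger2 and Ptger4. The adipocyte, mesothelial, and smooth muscle and pericyte values stand beside Ptger3, Pla2g16 and Fam213b. The part of these cells in the values of those genes was not tested either.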

How the data were processed

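RNA-seq of gWAT from 1 pooled library of 4 female mice per genotype was analysed; 2 bisulfite libraries of the series were not analysed here. Per the study's methods and labels, mRNA was selected with oligo(dT). The methods state that clean reads were aligned to mm9, while mm10 is also listed as a genome build in the sources used here. The aligner and the counting program are not given in the sources used here. The authors deposited expression values that behave as FPKM, with 0 written as 0.01; the header names no unit. The deposited table also holds the authors' fold change, P-value and FDR, which were not used.

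Values of 0.01 were set to 0. AD1KO was divided by fl/fl on the log2 scale after adding 0.01 FPKM to each value, for genes with at least 0.1 FPKM in 1 library, and a log2 ratio of 0.5 in size counted as lower or higher, as in the study's own definition. For low genes with reads in both libraries, this addition pulls the ratio toward 0. For a gene at 0 in 1 library, the size of the ratio is set by the addition and can be large. Pla2g1b, on about 0 and 2 reads, had a log2 ratio of 5.0, with an interval that included 0. For short genes FPKM values step by what 1 read is worth, which gave the depth and a length correction of 116 bases; of 550 low values in fl/fl and 534 in AD1KO, 82.4% and 80.7% were within 0.15 of a whole read. Ratio intervals are Clopper-Pearson and level intervals exact Poisson, both at 95%. A gene at 0 was given no level interval. A separate floor of up to 3 reads was set for such genes, but it entered no ratio or interval given here. With 1 library per group no p-value was computed. The steps were tested on simulated data.

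The genes and lists were chosen with earlier results of these data known. Named were the 10 enzymes, Dnmt1, 10 genes fixed by name, and in each list up to 4 genes past the fold, with the interval on 1 side of 0 and 1 FPKM in 1 library. Positions are from the GENCODE annotation of mm9, and start windows from RefSeq. Alternatives were other scalings, pseudocounts, filters and thresholds. Genes with near-identical copies or overlapping partners are uncertain where reads could be split. Tables were handled with pandas 2.3.3 and NumPy 2.4.6 in Python 3.11.15, intervals came from SciPy 1.17.1, and plots were drawn with Matplotlib 3.10.9.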

Additional observations from a re-analysis of the deposited data

How the results depend on the processing

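No paired analysis was possible because there was 1 pooled library per group. Of the 10 enzyme genes, 3 were lower in AD1KO at the settings used. That count was 2 under each of 3 other scalings and with a pseudocount of 0.1 FPKM, where Ptgds no longer passed. It was 1, Alox5ap, with a pseudocount of 1 FPKM, with a filter of 1 FPKM, with a log2 threshold of 1 and when the whole counting interval had to pass 0.5. The count of higher genes, 1 (Ptgis), was 0 at a threshold of 1. Across 6 scalings, pseudocounts and read-based ratios, Alox5ap ranged from -1.08 to -0.98 on the log2 scale, Ptgis from 0.67 to 0.79, Ptgs2 from -0.86 to -0.18 and Ptgds from -0.64 to -0.10. No log2 ratio of an enzyme gene reversed, but these alternatives could hardly have reversed one. A pseudocount cannot change the direction of a ratio, and each scaling shifted all genes alike by a small amount.

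Of the other pathway genes, 13 were lower. This count was 8 with the filter of 1 FPKM, 8 at a threshold of 1 and 7 with the whole interval past 0.5. For these genes both thresholds, and dropping the filter, were chosen after seeing the data. The 9 higher genes became 16 under upper quartile scaling, which moved the median of all genes from -0.04 to 0.05, and 5 with a pseudocount of 1 FPKM, 3 at a threshold of 1 and 3 with the whole interval. The remaining 46 of 58 alternative values kept within 1.5 times for a count or within the counting interval of the middle gene for a branch median. For single enzyme genes, 59 alternative log2 ratios lay within the counting interval of the gene and 1 did not. That was Ltc4s under upper quartile scaling, at 0.37 beside an interval of 0.20 to 0.35. Depth limits Ptgs2 and Ptgds most, with 26 and 5 reads in fl/fl.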

Other observations

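Genes of a further arm of the pathway, in which cytochrome P450 enzymes turn arachidonate into epoxides, were read from the gene ontology terms in the table after the data were seen. Of 17 genes measured under the term for the epoxygenase pathway, 12 were higher in AD1KO, none was lower and 5 lay between. Their median log2 ratio was 0.91. Over all genes 14.3% were higher and 19.1% lower. Most genes of the term had few reads. Only 1 of the 17 had its whole interval past the fold on the higher side, beside 4.19% of all genes. Cyp2c23 was at 5.07 FPKM in fl/fl and 14.92 FPKM in AD1KO, a log2 ratio of 1.56 (1.24 to 1.88). The next most abundant of the higher genes, Cyp2c70, was at 2.51 and 4.04 FPKM (0.68, 0.18 to 1.20). Cyp2j6 and Cyp2s1, at 6.44 and 6.35 FPKM in fl/fl, were at 8.10 and 8.47 FPKM in AD1KO, within the fold. Many Cyp2c genes are near-identical copies that may share reads, so single values are uncertain and the genes are not independent of each other.

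Of 14 genes measured under the term for prostaglandin biosynthesis, 5 were lower, 3 higher and 6 between, with a median log2 ratio of -0.03. The background was 19.1% lower and 14.3% higher over all genes. Most of the called genes are described above, and the intervals of Ptgs2 and Ptgds include 0. Among the genes not described above, Akr1cl had the highest ratio. It was at 0.50 FPKM in fl/fl and 2.04 FPKM in AD1KO (2.01, 1.07 to 3.15) on about 11 and 45 reads. The most abundant gene was Cd74, the invariant chain of MHC class II and a receptor for Mif. It was at 4662.35 FPKM in fl/fl and 1626.88 FPKM in AD1KO, a log2 ratio of -1.52 (-1.54 to -1.5). Of 10 genes under the term for leukotriene biosynthesis, 3 were lower, 2 higher and 5 between, with a median of 0.18, beside the same background. Of these, Syk, a kinase that acts below Fc receptors, was at 31.41 and 17.22 FPKM (-0.87, -0.96 to -0.78), and Fcer1a, the alpha chain of the IgE receptor and also 1 of the mast cell markers, at 7.95 and 3.08 FPKM (-1.37, -1.87 to -0.87). Among the higher genes of that term, Prg3 rested on about 3 and 6 reads. With 1 library per genotype these values have no replicate check.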
